A study of Mus musculus with 18 samples.

Results

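Collagen and laminin genes were followed in wild-type and TET-deficient mouse cells before and after culture with or without cytokines that promote germline differentiation. Of the 25239 genes in the count table, 55 carried a collagen chain symbol (Col, a type number, a and a chain number) or a laminin chain symbol (Lama, Lamb or Lamc and a number), and all 55 were kept. They comprised 44 collagen and 11 laminin genes on 17 chromosomes. 54 of them passed the filter on low counts and were tested, and Col19a1, which never exceeded 13.2 normalised counts, was not.

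Total RNA was sequenced from the E14Tg2a embryonic stem cell line, either wild type (WT) or Tet1-/-, Tet2-/-, Tet3-/- (TKO), in which the open reading frames of all TET dioxygenase genes had been excised with CRISPR/Cas9. The TKO cells were 1 clone, obtained by successive rounds of targeting. Stem cells kept in 2i/LIF were converted with activin A and Fgf2 on fibronectin into epiblast-like cells (EpiLCs, day 0), which were then aggregated in the medium used to make primordial germ cell-like cells (PGCLCs), either without added cytokines (-cyt) or with BMP4, BMP8a, SCF, LIF and EGF (+cyt). The 9 groups of 2 libraries each were WT and TKO EpiLCs, WT and TKO aggregates at day 2 (d2) -cyt and day 6 (d6) -cyt, TKO aggregates at d2 +cyt, and WT and TKO samples at d6 +cyt. WT d2 +cyt was not analysed here. The study used the WT -cyt aggregates as a control that contains no PGCLCs, and it proposes that they take a neural fate. The labels name the WT d6 +cyt samples as aggregates, whereas the study's description of the RNA-seq samples has them sorted for SSEA1 and CD61 and the others collected whole, so every comparison with this group also compares sorted with unsorted cells. The study calls the libraries of a group biological replicates, but no label ties them to separate cultures, and p-values measure only the spread between these libraries.

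Laminins are cross-shaped trimers of an alpha, a beta and a gamma chain that polymerise on the cell surface and start a basement membrane, and the alpha chain sets which receptors they bind. Type IV collagen forms the covalent network of that membrane, type XVIII is a heparan sulphate-bearing collagen within it, and the fibrillar types I, II, III, V and XI build the rope-like fibrils of connective tissue and cartilage. In the early mouse embryo the epiblast and the endoderm around it lay down basement membranes between them, while fibrillar collagens are typical of mesenchyme.

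The libraries held between 11286050 and 41257861 counts, of which the ribosomal precursor Rn45s took between 16.2% and 47.6%. This share moved with the groups, at 16.2% to 31.3% in all -cyt libraries against 31.7% to 37.3% in +cyt libraries and 33.1% to 47.6% in EpiLCs, and its part in the comparisons with those groups was not tested. The 55 genes together made up 0.122% to 0.271% of the remaining counts, and 40 to 55 of them exceeded 3 counts in a library. Replicates differed most in WT d6 -cyt, with a chi-square of 156 per gene against at most 70.8 in the other groups. Tet3 was lower in TKO at all 4 matched stages (log2 fold change from -1.73 to -4.23). Tet1 was lower in EpiLCs (-2.82) and at d6 +cyt (-4.20) and was not called at d2 -cyt (-0.30) or d6 -cyt (-0.12), where 737 to 1937 normalised counts remained. Tet2 was lower at d6 (-1.78 without and -4.04 with cytokines) and was not called in EpiLCs (-1.17) or at d2 -cyt (0.61). Exons outside the excised parts are counted in this table. The summed level of 6 pluripotent epiblast markers was 43754 to 75251 in EpiLCs, 798 and 1566 in WT d6 -cyt and 17769 to 32572 elsewhere. That of 6 germ cell markers was 7399 to 9210.0 in WT d6 +cyt, 2949.6 to 3771 in TKO aggregates and at most 574 elsewhere. That of 10 neural markers was 50352 to 57829 in WT d6 -cyt against at most 9417 elsewhere. In bulk RNA fewer cells of a type and less RNA per cell cannot be told apart.

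A small set of chains supplied nearly all of the signal in EpiLCs, and this concentration was lost in WT aggregates without cytokines. Col18a1, Lama5, Lamc1 and Lamb1 together gave 92.6% ± 0.018 (SD, n = 2) of all collagen and laminin normalised counts in WT EpiLCs and 88.6% ± 0.27 in TKO EpiLCs. Their share was 66.6% ± 1.8 in WT d2 -cyt and 22.4% ± 6.5 in WT d6 -cyt, but 57.4% ± 4.1 in TKO d6 -cyt. With cytokines it was 74.6% ± 1.9 in WT and 53.4% ± 2.3 in TKO at d6, and 78.9% ± 1.6 in TKO at d2. Counted per kilobase of transcript, the highest member of WT EpiLCs was Col18a1 with 2211 normalised counts per kb, ahead of Lama5 (800), Lamb1 (702) and Lamc1 (447). In WT d6 -cyt it was Col2a1, the cartilage and notochord collagen, with 486, followed by Col18a1 (336), Lamc1 (176) and Lamb2 (174). In TKO d6 +cyt the order was Lamc1 (889), Col18a1 (710), Col9a2 (660) and Col4a1 (597).

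**Figure D1:**
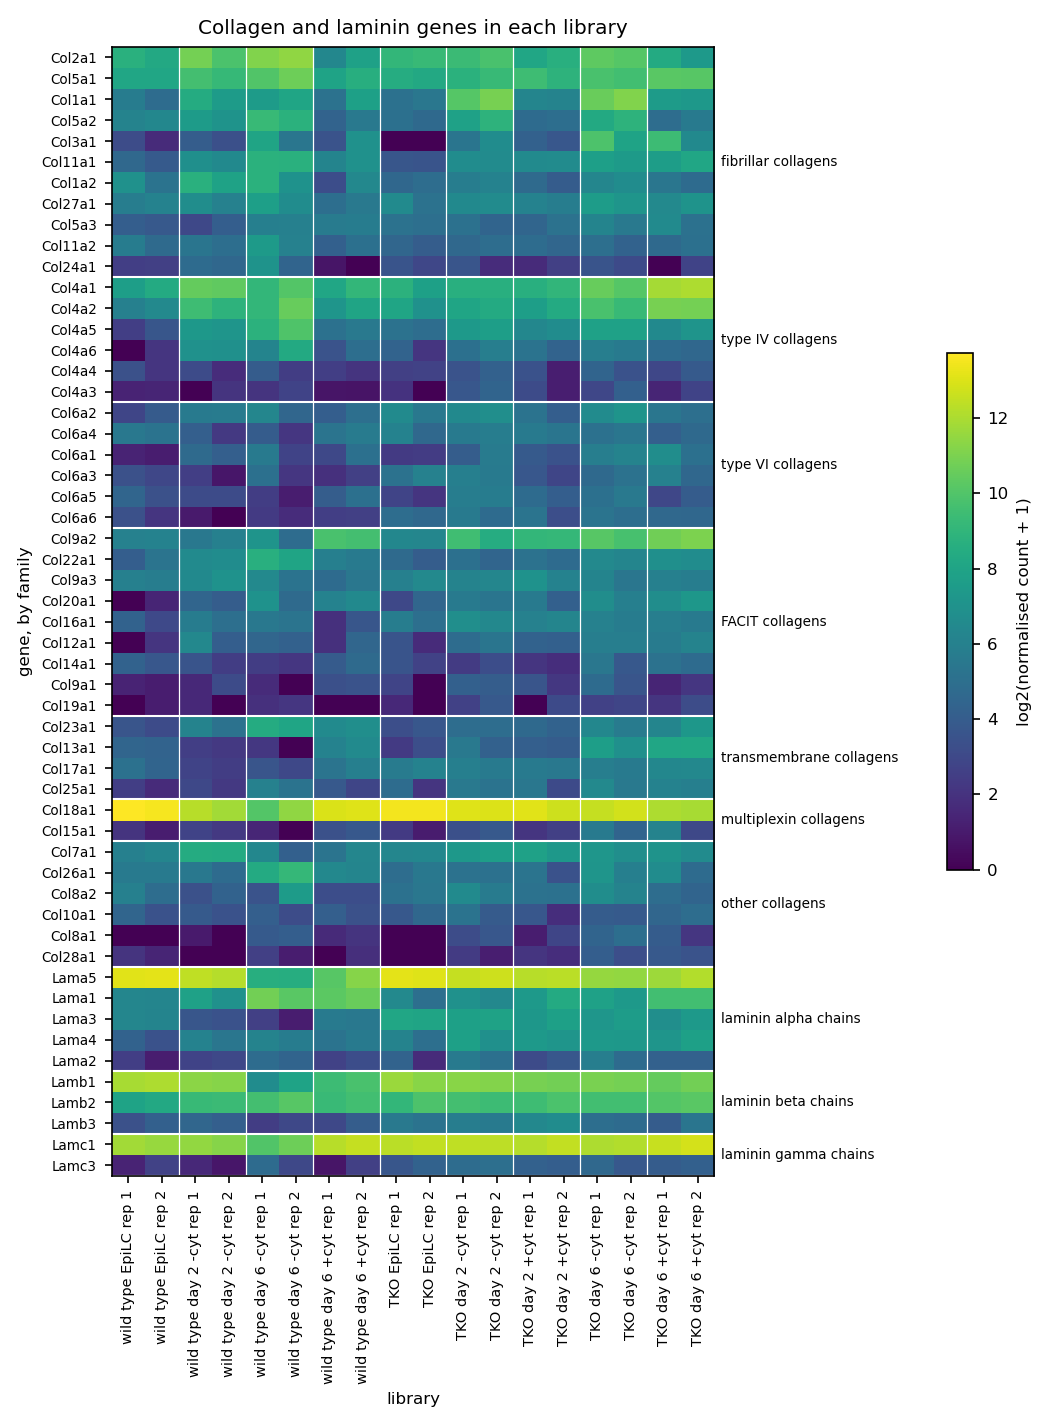
Heat map of 54 of the 55 genes (rows, by family) in the 18 libraries (columns, by group), coloured by log2(normalised count + 1). Col18a1, Lama5, Lamb1 and Lamc1 are high in every EpiLC library, and Lama5 and Lamb1 drop in the 2 WT d6 -cyt libraries while Lama1 and Col2a1 are high there.

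The calls came from quasi-likelihood tests in edgeR over 16582 genes, with Benjamini-Hochberg adjusted p below 0.05 as the limit, and those among the 54 tested members were read against those among all genes. When WT EpiLCs became d2 -cyt aggregates, type IV chains rose (Col4a1, Col4a2, Col4a5 and Col4a6, by 2.36 to 5.67 on the log2 scale) and Col18a1 and Lama3 fell. 22 members were higher and 7 lower, which is 40.7% and 13% of the members against 18.6% and 15.7% of all genes, and the median log2 fold change was 1.15 against 0.02 over all genes. With library size alone as the scaling, the median of all genes moved to 0.59 and 24 members were higher and 3 lower (88.9% of calls higher against 75.9%). Without WT EpiLC replicate 2 the count was 18 and without WT d2 -cyt replicate 1 it was 19. From d2 to d6 -cyt in WT, Lama1, Col26a1 and Col23a1 rose and Lamb1 and Lama5 fell, with 18 members higher and 8 lower (33.3% and 14.8%, against 20.5% and 19% of all genes). Without WT d2 -cyt replicate 2 the count was 15, and on the compared libraries alone it was 13.

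WT cells at d6 +cyt differed from WT EpiLCs by higher Lama1, Col9a2 and Col23a1 and by lower Lama5 and Lamb1. 18 members were higher and 4 lower, the others of the 4 being Col2a1 and Col5a2 (33.3% and 7.41%, against 22.4% and 18.2% of all genes). With library size alone 23 were higher and 2 lower (92% of calls higher against 81.8%). In that edgeR fit Col2a1 (-0.81, adjusted p = 0.132) and Col5a2 (-0.80, adjusted p = 0.139) were not called. Without WT d6 +cyt replicate 1 their log2 fold changes were -0.64 and -0.68. The count of called members in this comparison was 14 without WT EpiLC replicate 1, 11 without WT EpiLC replicate 2 and 14 without WT d6 +cyt replicate 2. Against WT d6 -cyt, the same cells had more of the laminin chains Lama3, Lama5, Lamb1 and Lamc1 and less of Col2a1, Col5a2, Col4a2, Col4a5 and Col4a6. Of the 11 fibrillar genes 8 were lower, and of the 6 type IV genes 4. Col4a1, 1 of those 4 (-0.95, adjusted p = 0.0391), was not called on the compared libraries alone (adjusted p = 0.148), without WT d6 -cyt replicate 2 (-0.37, adjusted p = 0.412) or without WT d6 +cyt replicate 1 (-0.55, adjusted p = 0.304). Col1a2, 1 of the 8 (-2.56, adjusted p = 0.0095), was likewise not called on the compared libraries alone (adjusted p = 0.127), without WT d6 -cyt replicate 1 (-1.40, adjusted p = 0.133) or without WT d6 +cyt replicate 1 (-1.70, adjusted p = 0.0654). In that comparison 14 members were higher and 22 lower (25.9% and 40.7%, against 29.6% and 28.6% of all genes), with a median of -0.88.

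TKO cells had more of Lama3 than WT at every matched stage. In EpiLCs 7 members were higher and 0 lower in TKO (13% and 0%, against 7.57% and 3.18% of all genes). Without the filter 12 members were called, by DESeq2 14 and with library size alone 13, and at an unadjusted p below 0.05 edgeR had 18 higher and 3 lower. The EpiLC count was 2 without either WT EpiLC library, 3 without TKO EpiLC replicate 1 and 14 without either WT d6 -cyt library. At d2 -cyt 19 members were higher and Col1a2, Col22a1 and Col4a1 lower in TKO (35.2% and 5.56%, against 18% and 14.8%), with 13 calls without WT d2 -cyt replicate 2 and 14 without TKO d2 -cyt replicate 1. At d6 -cyt, 19 were higher and 11 lower (35.2% and 20.4%, against 28.5% and 26.9%). At d6 +cyt 16 were higher and Col18a1 was the 1 that was lower (29.6% and 1.85%, against 11.3% and 7.53%), with 4 calls without WT d6 +cyt replicate 1, 10 without TKO d6 +cyt replicate 1 and 9 without replicate 2. The median difference was 0.31 in EpiLCs, 1.04 at d2 -cyt, 0.74 at d6 -cyt and 1.18 at d6 +cyt.

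Within TKO, Col1a1, Col5a2, Col11a1 and Col9a2 rose between EpiLCs and d2 -cyt. 13 members were higher and 0 lower (24.1% and 0%, against 10.1% and 8.52% of all genes), and none was lower at an unadjusted p below 0.05 either. The count was 23 with library size alone, 7 without TKO EpiLC replicate 2, 7 without TKO d2 -cyt replicate 1 and 8 without replicate 2. From EpiLCs to d2 +cyt Lama5 was lower, a call that edgeR lost with library size alone (-0.78, adjusted p = 0.0667). It was also lost without any of the libraries compared (log2 fold changes from -0.78 to -0.89). In this comparison 7 members were higher and Lama5 was the 1 that was lower (13% and 1.85%, against 7.88% and 6.39%), with library size alone 7 and 0. This count ranged from 3 without TKO EpiLC replicate 2 to 14 without either WT d6 -cyt library, with 4 or 5 calls without each of the other compared libraries. Between d2 and d6 -cyt in TKO, edgeR called 0 members (0% and 0%, against 0.422% and 0.0543% of all genes), while 13 were higher and 1 lower at an unadjusted p below 0.05, DESeq2 called 4, edgeR without the filter called 5 and edgeR on the libraries compared alone called 12. It called 3 without either WT d6 -cyt library, and 1 without either WT d6 +cyt or either TKO EpiLC library. Between d2 and d6 +cyt, Col4a1, Col4a2 and Col13a1 rose, and 11 members were higher and Lamb3 was lower (20.4% and 1.85%, against 4.28% and 1.72%). That count fell to 3 and 5 without TKO d2 +cyt replicate 1 or 2, and to 5 and 6 without TKO d6 +cyt replicate 1 or 2.

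With cytokines, Col1a1 and Col5a2 were lower in TKO at both days. At d2, Col1a1 and Col5a2 were lower with cytokines and 0 members were higher (3.7% and 0%, against 2.47% and 2.05% of all genes). At an unadjusted p below 0.05, edgeR had 2 higher and 9 lower, DESeq2 called 6, edgeR without the filter 6, with library size alone 8, on the libraries compared alone 12 and without either WT d6 -cyt library 7. At d6, 3 members including Lama1 and Col4a1 (1.62, adjusted p = 0.0222) were higher and Col1a1, Col5a2 and Col2a1 lower (5.56% each, against 2.56% and 3.05%), and with library size alone 1 was higher and 8 lower (11.1% of calls higher against 50%). The Col4a1 call was lost with library size alone (1.09, adjusted p = 0.0588) and without any of the 4 libraries compared (adjusted p from 0.0809 to 0.185), and that of Col2a1 without TKO d6 -cyt replicate 1 (adjusted p = 0.0672) or TKO d6 +cyt replicate 2 (adjusted p = 0.0809). The d6 count was 2 or 3 without a TKO d6 -cyt library, 2 or 1 without a TKO d6 +cyt library, and 14 or 13 without a WT d6 -cyt library. In tests of the difference between genotypes, the change from EpiLCs to d6 -cyt was more positive in TKO for 12 members and more negative for 9 (22.2% and 16.7%, against 18.5% and 18.5% of all genes). The change with cytokines at d6 was more positive in TKO for 13 and more negative for 13 (24.1% each, against 21% and 22%).

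**Figure D2:**
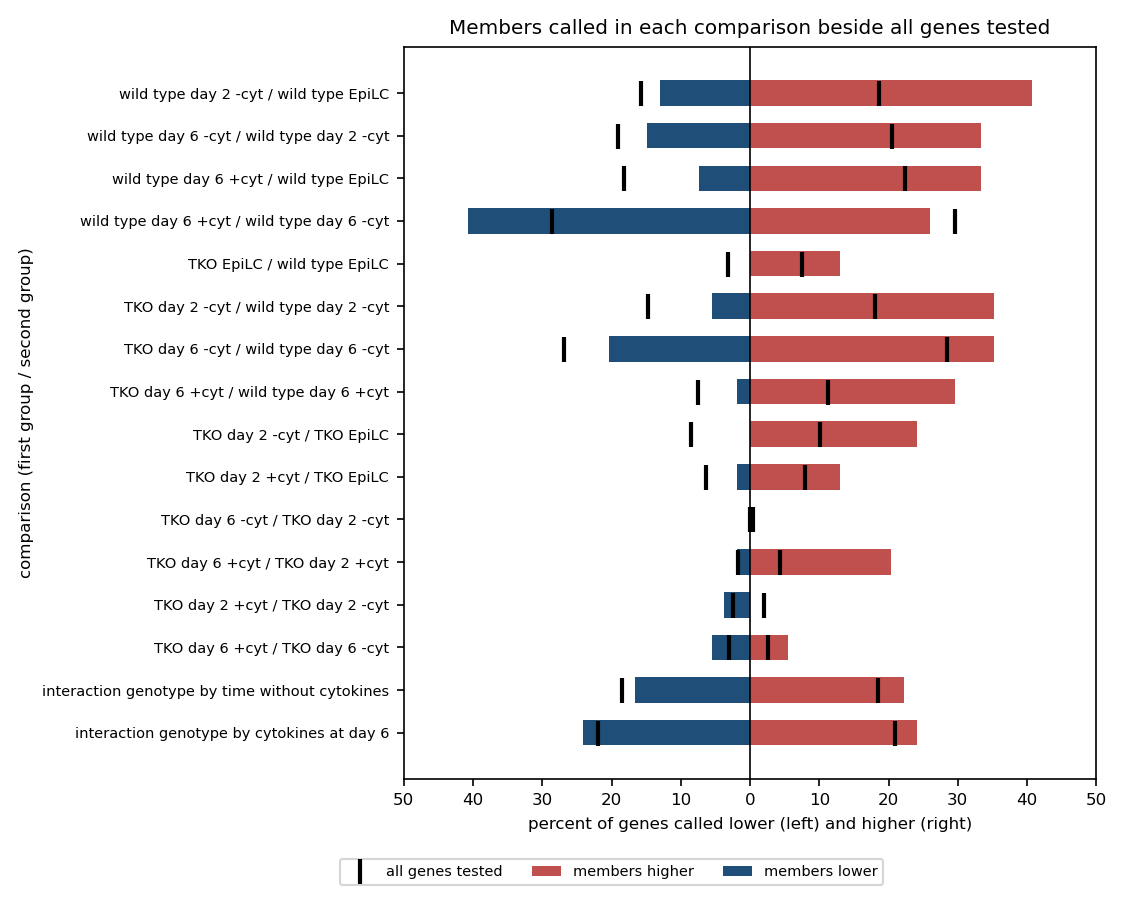
Share of the 54 tested collagen and laminin genes called higher (right) or lower (left) in each of the 16 comparisons, in percent, with ticks for the share of all 16582 genes tested. In percentage points, bars pass their ticks furthest for members higher in WT d2 -cyt than in EpiLCs (40.7% against 18.6%) and higher in TKO than in WT at d6 +cyt (29.6% against 11.3%).

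Among the laminins, WT aggregates without cytokines exchanged the alpha5 chain for the alpha1 chain. Lama5 (chromosome 2, 180176373 to 180225859, minus strand, mm10), whose product makes up laminin-511 of the epiblast, gave 8979 and 9237 normalised counts in WT EpiLCs, 5489.9 and 4690.2 in WT d2 -cyt, 384 and 374 in WT d6 -cyt, and 1165 and 2418 in WT d6 +cyt. In TKO it gave 9261 and 8511 in EpiLCs, 5921 and 6601 in d2 -cyt, 4897 and 5013 in d2 +cyt, 3006 and 2898 in d6 -cyt, and 3420.1 and 4529 in d6 +cyt. Both WT d6 -cyt libraries lay below every other library, and all TKO d6 libraries lay above both WT d6 +cyt libraries. From d2 to d6 -cyt in WT the log2 fold change was -3.79 ± 0.28 (SE, adjusted p = 1.41e-07), and at d6 -cyt TKO exceeded WT by 2.98 ± 0.27 or 7.88-fold (adjusted p = 3.02e-07).

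Lama1 (chromosome 17, 67697259 to 67822647, plus strand), the alpha chain of laminin-111 of the early embryonic basement membrane, ran the other way. It gave 77.1 and 75.0 normalised counts in WT EpiLCs, 229 and 124 in WT d2 -cyt, 1794 and 1194 in WT d6 -cyt, and 1219 and 1537 in WT d6 +cyt. TKO libraries gave 86.3 and 31.9 in EpiLCs, 122 and 82.9 in d2 -cyt, 164 and 330.2 in d2 +cyt, 228 and 174 in d6 -cyt, and 751 and 770.3 in d6 +cyt. The WT d6 libraries were therefore the highest, the TKO d6 +cyt libraries stood between them and the rest, and the groups at d6 did not overlap between genotypes. Lama1 rose by 3.05 ± 0.41 between d2 and d6 -cyt in WT (8.27-fold, adjusted p = 3.77e-05), stood 4.22 ± 0.44 higher in WT d6 +cyt than in EpiLCs (adjusted p = 5.4e-06) and was 2.87 lower in TKO than in WT at d6 -cyt (log2 fold change -2.87, adjusted p = 3.11e-05). With cytokines at d6 TKO had 1.93 more than without (adjusted p = 0.012), a call lost without any of the 4 libraries compared (adjusted p from 0.0528 to 0.127).

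Read per kilobase, the alpha5 chain made 97.8% ± 0.28 (SD, n = 2) of the alpha-chain signal in WT EpiLCs, 94.0% ± 1.6 in WT d2 -cyt, 16.8% ± 3.7 in WT d6 -cyt and 48.7% ± 8.9 in WT d6 +cyt. The alpha1 chain took 0.98%, 3.8%, 76.7% ± 3.8 and 47.4% ± 8.0 in the same groups. In TKO the alpha5 share stayed at 95.1% in EpiLCs, 89.4% in d2 -cyt, 86.1% in d2 +cyt, 79.1% in d6 -cyt and 73.5% in d6 +cyt. The alpha1 share of TKO libraries was highest at d6 +cyt with 17.1% ± 2.7. No TKO group reached the alpha1 share of either WT d6 group.

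The beta1 chain fell together with alpha5 in WT, whereas beta2 did not. Lamb1 (chromosome 12, 31265234 to 31329644, plus strand), the beta chain of laminin-111 and laminin-511, gave 3901 and 4225 normalised counts in WT EpiLCs, 2583 and 2441 in WT d2 -cyt, 102 and 252 in WT d6 -cyt, and 670.3 and 881 in WT d6 +cyt. TKO libraries held 3304 and 2540.0 in EpiLCs, 2492 and 2331 in d2 -cyt, 1944 and 1791 in d2 +cyt, 1996 and 1882 in d6 -cyt, and 1458 and 1778 in d6 +cyt. The 4 WT d6 libraries were thus the lowest of all 18. The drop from d2 to d6 -cyt in WT was -3.91 ± 0.32 (adjusted p = 3.86e-07) and the excess of TKO over WT at d6 -cyt was 3.51 ± 0.31 or 11.4-fold (adjusted p = 3.09e-07). At d6 +cyt TKO exceeded WT by 1.06 (adjusted p = 0.0176), a call lost without WT d6 +cyt replicate 1 (0.87, adjusted p = 0.167) or TKO d6 +cyt replicate 2 (0.91, adjusted p = 0.0966). Lamb2, the beta chain of synaptic and glomerular basement membranes, ranged from 251 to 1181 normalised counts and was higher in WT d2 -cyt than in WT EpiLCs (1.22, adjusted p = 0.00179). The ratio of Lamb1 to Lamb2 per kilobase was 14.3 ± 1.2 in WT EpiLCs, 0.168 ± 0.064 in WT d6 -cyt and 2.50 ± 0.10 in TKO d6 -cyt.

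Lamc1 (chromosome 1, 153218922 to 153332786, minus strand), the gamma chain of most laminins, had the smallest ratio of highest to lowest library among the 4 abundant chains. It gave 3676 and 3142 normalised counts in WT EpiLCs, 2920.4 and 2412 in WT d2 -cyt, 1019.5 and 1664 in WT d6 -cyt and 4866 and 5949 in WT d6 +cyt. TKO libraries gave 5074 and 5723 in EpiLCs, 5445 and 5195 in d2 -cyt, 4717 and 5654 in d2 +cyt, 4213 and 4620.4 in d6 -cyt, and 6136 and 7417 in d6 +cyt. All TKO libraries therefore lay above every WT library other than the 2 of WT d6 +cyt. TKO exceeded WT by 0.97 ± 0.22 at d2 -cyt (adjusted p = 0.00314) and 1.74 ± 0.22 at d6 -cyt (adjusted p = 1.02e-05). In EpiLCs the difference of 0.70 sat at the threshold (adjusted p = 0.05, and 0.0629 with RLE factors). The fall of 1.04 from d2 to d6 -cyt in WT (log2 fold change -1.04, adjusted p = 0.00144) was not called when only the libraries compared were fitted (adjusted p = 0.0788).

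Lama3, the alpha chain of the epithelial adhesion laminin, separated the genotypes. It gave 78.7 and 71.7 normalised counts in WT EpiLCs, 11.7 and 10.1 in WT d2 -cyt, 4.99 and 1.158 in WT d6 -cyt, and 48.7 and 44.4 in WT d6 +cyt, against 108 to 278 in the 10 TKO libraries. Every TKO library lay above every WT library. The excess of TKO was 1.87 ± 0.32 in EpiLCs (adjusted p = 0.00234), 4.36 ± 0.38 at d2 -cyt (adjusted p = 1.23e-06), 5.50 ± 0.43 or 45.2-fold at d6 -cyt (adjusted p = 7.31e-08) and 1.59 at d6 +cyt (adjusted p = 0.00369). The size at d6 -cyt rests on 11 and 1 raw counts in WT. Lamb3, a beta chain of epithelia, stayed at or below 102. In the epidermis list the summed level of 5 markers was 39.7 to 153 in TKO d2 and d6 -cyt and d2 +cyt libraries, 21.8 and 27.6 in TKO d6 +cyt and at most 14.6 in WT and in TKO EpiLCs. TKO EpiLCs, with 278 and 261 Lama3 counts, held 3.97 and 4.40 counts of these markers, of which 3 of 5 were at 0. The part of such cells in the Lama3 level was not tested in any group. Lama4, an alpha chain of vessel walls, spanned 10.0 to 223, and Lama2 and Lamc3 stayed at or below 57.1 and 31.2.

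**Figure D3:**
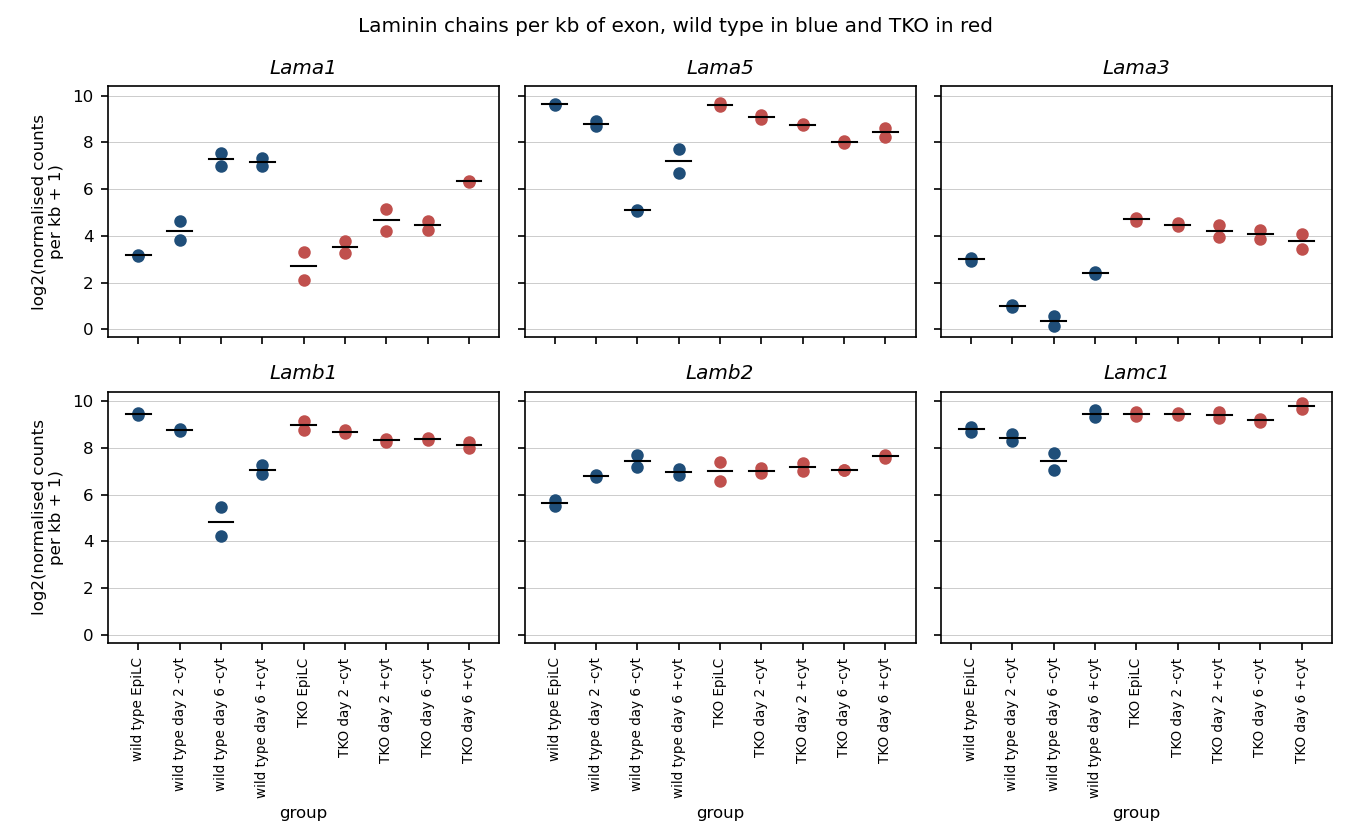
Levels of 6 laminin chain genes in the 9 groups (WT blue, TKO red) as log2(normalised counts per kb + 1); points are libraries and bars are the mean of the 2 log2 values. Lama5 and Lamb1 are lowest in WT d6 -cyt, Lama1 is highest in the WT d6 groups, whose points overlap, and every TKO point of Lama3 lies above every WT point.

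The 6 type IV collagen genes are arranged as head-to-head pairs that share a start region, and the starts of the pairs whose levels are described next are shown for that reason. Sequences are from RefSeq, build GRCm38.p6. Col4a1 (chromosome 8, 11198423 to 11312826, minus strand) and Col4a2 (11312805 to 11449287, plus strand) begin 21 bp apart, so that their gene models overlap by 22 bases, printed in capitals on the Col4a2 strand with the bases around them (chr8:11312801-11312830):
Col4a1/Col4a2: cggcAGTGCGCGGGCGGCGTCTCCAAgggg
Col4a5 (chromosome X, 141475385 to 141689234, plus strand) and Col4a6 (141165403 to 141474076, minus strand) begin 1309 bp apart. The stretch before each start is printed on the strand of its gene, with the letters CCAAT in capitals (chrX:141475169-141475369 for Col4a5 and chrX:141474096-141474326 for Col4a6):
Col4a5: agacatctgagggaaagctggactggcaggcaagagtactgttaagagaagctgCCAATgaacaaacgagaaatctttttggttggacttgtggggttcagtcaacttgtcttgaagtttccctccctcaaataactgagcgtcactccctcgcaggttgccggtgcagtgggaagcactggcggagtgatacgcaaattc
Col4a6: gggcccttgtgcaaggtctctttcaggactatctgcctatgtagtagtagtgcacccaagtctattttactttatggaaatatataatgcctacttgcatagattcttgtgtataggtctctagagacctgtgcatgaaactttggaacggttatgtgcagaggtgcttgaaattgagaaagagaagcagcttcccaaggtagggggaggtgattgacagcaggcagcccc
Over the 300-base windows around the starts, searched on both strands, CCAAT was found 1 time each for Col4a1, Col4a2 and Col4a5 and 0 times for Col4a6, and GGGCGG 1, 3, 1 and 1 times. Of all 32851 promoter windows of that length 37.4% held CCAAT and 35.7% GGGCGG. A match of letters is a description only. Windows were found for 40 of the 55 genes.

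Both type IV pairs rose when WT EpiLCs became d2 aggregates, but at d6 they parted. Col4a1, which with Col4a2 forms the network found in nearly all basement membranes, gave 209 and 338 normalised counts in WT EpiLCs, 1412 and 1339 in WT d2 -cyt, 539 and 1080.4 in WT d6 -cyt, and 276 and 535 in WT d6 +cyt. TKO libraries gave 443 and 221 in EpiLCs, 407 and 411 in d2 -cyt, 409 and 523 in d2 +cyt, 1514 and 1084 in d6 -cyt, and 3709 and 4186 in d6 +cyt. The TKO d6 +cyt libraries were the highest of all 18, and at d2 -cyt the order of the genotypes was reversed, with both WT libraries above both TKO libraries. Col4a1 was 2.36 ± 0.39 higher in WT d2 -cyt than in EpiLCs (adjusted p = 0.00033). TKO differed from WT by -1.78 at d2 -cyt (adjusted p = 0.0024) and by 3.28 ± 0.40 or 9.69-fold at d6 +cyt (adjusted p = 8.03e-05). Between d2 and d6 +cyt it rose in TKO by 3.09 ± 0.40 (adjusted p = 0.000437).

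Col4a2 gave 62.7 and 85.6 normalised counts in WT EpiLCs, 715 and 465 in WT d2 -cyt, 536 and 1508 in WT d6 -cyt, and 141 and 254 in WT d6 +cyt. TKO libraries held 264 and 124 in EpiLCs, 271 and 332 in d2 -cyt, 209 and 334 in d2 +cyt, 883 and 599 in d6 -cyt, and 1899.8 and 1886 in d6 +cyt. As for Col4a1, the TKO d6 +cyt libraries stood above all others. The difference between TKO and WT at d6 +cyt was 3.25 ± 0.47 (adjusted p = 0.00032). The rise from d2 to d6 +cyt in TKO was 2.81 (adjusted p = 0.00243), and 2.50 without TKO d2 +cyt replicate 1 (adjusted p = 0.0671). Per kilobase, the ratio of Col4a1 to Col4a2 lay between 1.21 and 3.85 in all libraries other than the 2 of WT d6 -cyt, where it was 0.982 and 0.699.

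Endoderm that surrounds the embryo is a rich source of type IV collagen, and its markers were read beside these values. The summed level of 14 extraembryonic endoderm markers was 885 and 822 in TKO d6 +cyt, 811 and 634 in TKO d6 -cyt, 191 to 396 in other TKO libraries and 117 to 276 in WT libraries, apart from WT d6 -cyt replicate 2 with 1446, of which Ttr gave 1331. In TKO d6 +cyt, 10 of the 14 exceeded 3 counts and 2 were at 0 in each library, with Gata4 at 195 and 179 and Sox17 at 60.5 and 75.8. Afp, the defining product of yolk sac endoderm, did not exceed 1.24 in any library. Between TKO d6 -cyt and +cyt the markers moved in both directions, with Gata6 at 75.4 and 73.2 and then 183 and 280.1, Cubn at 54.9 and 48.0 and then 156 and 64.3, and Sox7 at 43.1 and 46.7 and then 77.3 and 52.8, but Dab2 at 134 and 111 and then 58.8 and 41.3, and Ttr at 53.8 and 56.8 and then 0 and 0. The part of such cells in the type IV values was not tested. Endothelium also makes these chains, and the sum of 6 endothelial markers was 2924 and 2775 in WT d6 +cyt, 710 to 1223 in TKO aggregates and 105 to 652 elsewhere. Pecam1 alone gave 2801 and 2553 of the sums in WT d6 +cyt, the group described as sorted, where Tek gave 102.9 and 126.8, Kdr 6.26 and 61.8, Cdh5 13.2 and 27.0, Erg 0 and 5.79 and Emcn 0 and 0.643.

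Col4a5 and Col4a6, chains of the specialised networks of kidney and smooth muscle, took another course. Col4a5 gave 4.82 and 11.7 normalised counts in WT EpiLCs, 157 and 141 in WT d2 -cyt, 454 and 999 in WT d6 -cyt, and 34.1 and 45.0 in WT d6 +cyt. In TKO it gave 35.7 and 28.6 in EpiLCs, 169 and 207 in d2 -cyt, 80.5 and 101 in d2 +cyt, 232 and 229.7 in d6 -cyt, and 90.7 and 137 in d6 +cyt. The WT d6 -cyt libraries were the highest. Col4a5 rose by 4.01 ± 0.44 in WT at d2 (adjusted p = 1.12e-05) and by a further 2.24 ± 0.35 at d6 -cyt (adjusted p = 0.000141), and it was 4.15 lower in WT d6 +cyt than in WT d6 -cyt (log2 fold change -4.15, adjusted p = 3.12e-07). Col4a6 gave 0 and 3.33 in WT EpiLCs, 124 and 118 in WT d2 -cyt and 71.6 and 328 in WT d6 -cyt, and at most 58.1 in TKO. Its rise at d2 in WT was 5.67 ± 0.98 (adjusted p = 0.000457), a size that rests on 0 and 6 raw counts in EpiLCs. Its lower level in TKO than in WT at d6 -cyt (-1.87, adjusted p = 0.0356) was not called with the replicate block (adjusted p = 0.0519), with library size alone (adjusted p = 0.0505), on the libraries compared alone (adjusted p = 0.104), or without WT d6 -cyt replicate 2 (-0.41, adjusted p = 0.611) or a TKO d6 -cyt library (adjusted p = 0.108 and 0.156). Col4a3 and Col4a4 stayed at or below 20.5.

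**Figure D4:**
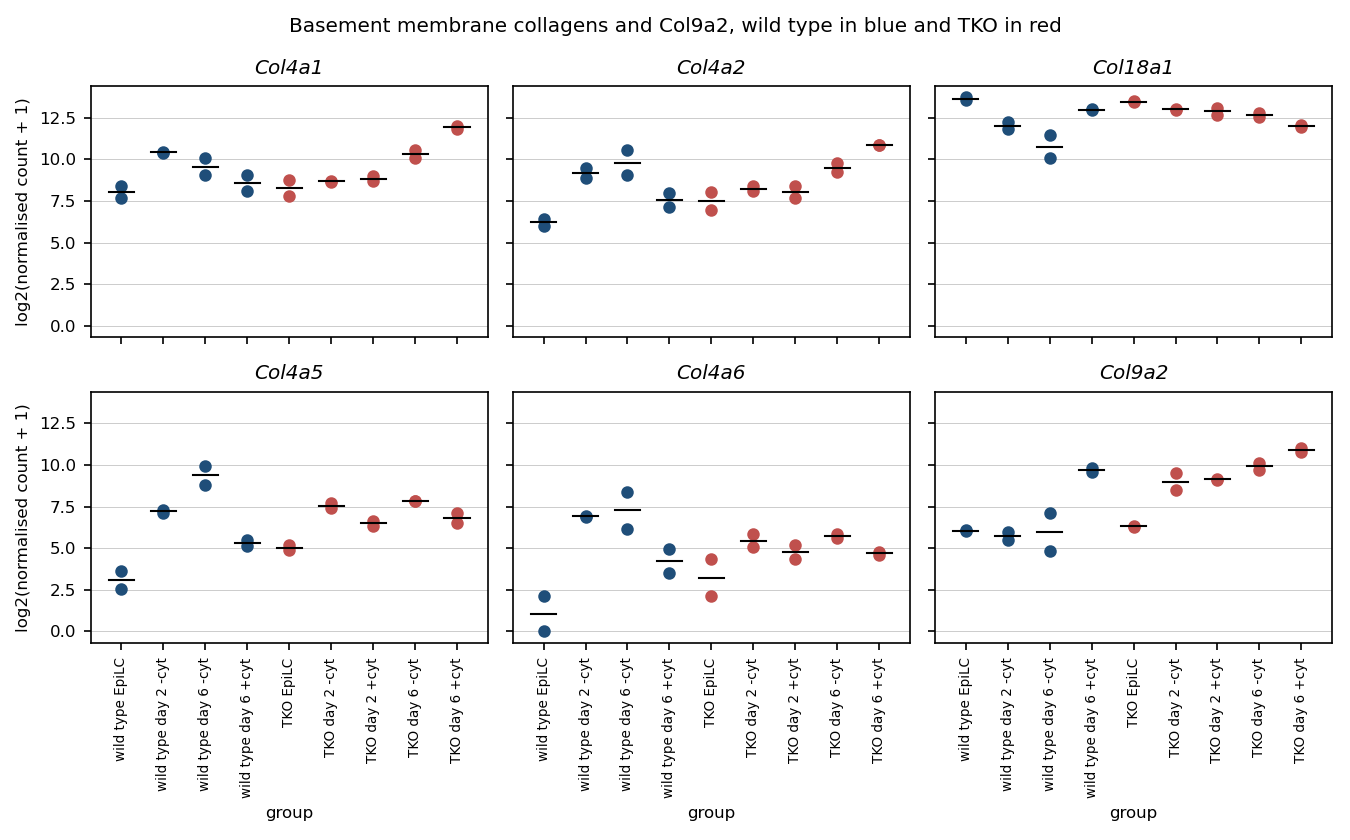
Levels of Col4a1, Col4a2, Col18a1, Col4a5, Col4a6 and Col9a2 in the 9 groups (WT blue, TKO red) as log2(normalised count + 1); points are libraries and bars are the mean of the 2 log2 values. Col4a1 and Col4a2 peak in TKO d6 +cyt, and Col4a5 peaks in WT d6 -cyt.

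Col18a1 (chromosome 10, 77052178 to 77166548, minus strand), the source of endostatin, was the most abundant member in EpiLCs of both genotypes. It gave 13586 and 12109 normalised counts in WT EpiLCs, 4829 and 3590.1 in WT d2 -cyt, 1083 and 2824 in WT d6 -cyt, and 7937 and 8411 in WT d6 +cyt. In TKO it gave 11428 and 11498 in EpiLCs, 8454 and 8081 in d2 -cyt, 8905 and 6468 in d2 +cyt, 5909 and 7009 in d6 -cyt, and 4289 and 3964 in d6 +cyt. TKO lay above WT at d2 and d6 -cyt and below WT at d6 +cyt, without overlap. It fell by 1.56 in WT at d2 (log2 fold change -1.56, adjusted p = 0.00146). At d6 -cyt TKO exceeded WT by 1.75 (adjusted p = 0.000272), and when only the libraries compared were fitted the adjusted p was 0.0522. At d6 +cyt TKO stood 0.99 lower (log2 fold change -0.99, adjusted p = 0.0362), a call lost without any of the 4 libraries compared (adjusted p from 0.122 to 0.149) and without a TKO d2 -cyt library (adjusted p = 0.0505). Col15a1, the other multiplexin, did not exceed 68.9.

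Several fibrillar collagen genes rose in d2 aggregates without cytokines, 6 of 11 in WT and 4 of 11 in TKO. The summed level over 11 genes was 989 ± 172 (SD, n = 2) in WT EpiLCs, 3101 ± 1117 in WT d2 -cyt, 5842 ± 145 in WT d6 -cyt and 960 ± 550 in WT d6 +cyt. In TKO it was 1146 ± 32.5 in EpiLCs, 3532 ± 1103 in d2 -cyt, 1287 ± 91.5 in d2 +cyt, 5461 ± 230 in d6 -cyt and 2501 ± 556 in d6 +cyt. The sums of the genotypes at d6 -cyt lay close to each other, but different genes led them. In WT d6 -cyt Col2a1 led with 2206 and 2756, whereas in TKO d6 -cyt Col1a1 led with 1556 and 2224 and Col2a1 gave 1292 and 1088. Of the 11 fibrillar genes, 6 were higher and 0 lower in WT d2 -cyt than in EpiLCs (against 18.6% and 15.7% of all genes) and 6 higher and 0 lower in WT d6 -cyt than in d2 -cyt (20.5% and 19%). In WT d6 +cyt against d6 -cyt, 0 were higher and 8 lower (29.6% and 28.6%). In TKO, 4 were higher and 0 lower in d2 -cyt than in EpiLCs (10.1% and 8.52%). Between d2 and d6 -cyt edgeR called 0 (0.422% and 0.0543%). Over all members, not the fibrillar genes alone, DESeq2 called 4 there, edgeR without the filter 5 and edgeR on the compared libraries alone 12. The cartilage list of 5 markers summed to 1483 and 1133 in WT d6 -cyt against at most 450 elsewhere. Sox9 alone gave 1438 and 1121 of these WT d6 -cyt sums. The other markers were low there, with Acan at 24.5 and 2.32, Matn1 at 1.36 and 0, Comp at 6.35 and 2.32 and Chad at 12.7 and 6.95. In TKO d6 -cyt Acan gave 208 and 222, Matn1 17.2 and 15.1, Comp 26.9 and 26.5 and Chad 15.1 and 21.5. The 10 neural markers were highest in the WT d6 -cyt libraries. The part of either cell type in the Col2a1 level was not tested.

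Col1a1 and Col1a2, which together make type I collagen in a fixed ratio of chains, did not move in step. Col1a1 (chromosome 11, 94936224 to 94953042, plus strand) gave 53.0 and 28.4 normalised counts in WT EpiLCs, 354 and 185 in WT d2 -cyt, 183 and 269.8 in WT d6 -cyt, and 35.5 and 223 in WT d6 +cyt. In TKO it gave 33.7 and 42.9 in EpiLCs, 1087 and 1928 in d2 -cyt, 75.9 and 69.5 in d2 +cyt, 1556 and 2224 in d6 -cyt, and 186 and 161 in d6 +cyt. The 4 TKO libraries without cytokines were the highest and overlapped with no other library. Col1a1 rose in TKO by 5.28 ± 0.66 or 38.9-fold at d2 -cyt (adjusted p = 0.000137), and with cytokines at d2 it was 4.35 lower than without (log2 fold change -4.35, adjusted p = 0.00182). At d6 the difference with cytokines was -3.43 (adjusted p = 0.00479), which was not called without either TKO d6 +cyt library (adjusted p = 0.0579 and 0.0514). TKO exceeded WT by 2.46 at d2 -cyt (adjusted p = 0.00358, and 2.06 with adjusted p = 0.0544 without WT d2 -cyt replicate 2) and by 3.09 ± 0.57 at d6 -cyt (adjusted p = 0.000328).

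Col1a2 (chromosome 6, 4504814 to 4541544, plus strand) gave 122 and 36.1 normalised counts in WT EpiLCs, 412 and 241 in WT d2 -cyt, 429.8 and 125 in WT d6 -cyt, and 8.34 and 83.7 in WT d6 +cyt. TKO libraries gave 22.8 and 28.6 in EpiLCs, 55.0 and 67.3 in d2 -cyt, 26.1 and 14.9 in d2 +cyt, 78.6 and 99.7 in d6 -cyt, and 40.3 and 26.4 in d6 +cyt. All TKO libraries thus lay below both WT d2 -cyt libraries. At d2 -cyt TKO was below WT (-2.44, adjusted p = 0.0238), the opposite direction to Col1a1, and the call was lost without WT d2 -cyt replicate 1 (-2.03, adjusted p = 0.112), TKO d2 -cyt replicate 1 (-2.31, adjusted p = 0.143) or replicate 2 (-2.59, adjusted p = 0.101). Per kilobase, the ratio of Col1a1 to Col1a2 was 17.8 and 25.8 in TKO d2 -cyt and 17.9 and 20.1 in TKO d6 -cyt, against 0.383 to 5.49 in the 14 other libraries. The 4 TKO libraries without cytokines thus did not overlap with the rest.

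Col3a1 (chromosome 1, 45311538 to 45349706, plus strand), the fibrillar collagen of soft tissues, differed widely between replicates. It gave 8.03 and 2.22 normalised counts in WT EpiLCs, 15.6 and 9.32 in WT d2 -cyt, 262 and 40.5 in WT d6 -cyt, and 10.4 and 124 in WT d6 +cyt. TKO libraries gave 0 and 0 in EpiLCs, 39.4 and 101 in d2 -cyt, 18.1 and 12.4 in d2 +cyt, 963 and 246 in d6 -cyt, and 692 and 89.5 in d6 +cyt. Replicates of 5 groups differed by more than a factor of 3, and its calls moved with single libraries. The rise of 3.60 from d2 to d6 -cyt in WT (adjusted p = 0.033) was 1.68 without WT d6 -cyt replicate 1 (adjusted p = 0.397). Against a floor of 3 counts per library, Col3a1 was at least 22.4-fold higher in TKO d2 -cyt than in TKO EpiLCs (adjusted p = 0.0326, and 0.0592 to 0.132 without each of the 4 libraries).

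Col5a2, a chain of type V collagen that lies 24614 bp from Col3a1 on the opposite strand, followed Col1a1 in TKO. It gave 32.7 and 25.3 normalised counts in TKO EpiLCs, 227 and 463 in d2 -cyt, 27.2 and 29.8 in d2 +cyt, 319.8 and 473 in d6 -cyt, and 28.6 and 48.2 in d6 +cyt. Without cytokines it was above every TKO library with them. It was lower with cytokines by 3.57 at d2 (log2 fold change -3.57, adjusted p = 0.000838) and 3.32 at d6 (log2 fold change -3.32, adjusted p = 0.000801), and 3.93 lower in WT d6 +cyt than in WT d6 -cyt (log2 fold change -3.93, adjusted p = 1.7e-06). Col5a1, its partner chain, behaved differently, with 1203 and 1133 in TKO d6 +cyt against 245 and 390.0 in WT d6 +cyt (1.87 ± 0.28, adjusted p = 0.000371). Col11a1, a chain of cartilage fibrils, rose in TKO by 3.10 at d2 -cyt (adjusted p = 7.82e-05) and by 3.04 at d2 +cyt (adjusted p = 6.13e-05).

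Mesenchyme markers did not share a single pattern. The summed level of 10 markers was 7157 and 7189 in WT d2 -cyt, of which the contractile genes Tagln and Acta2 gave 5076 and 5955 and 1875 and 1078, against 155 to 461 in other WT libraries. TKO d2 +cyt, where Col1a1 gave 75.9 and 69.5, held 2161 and 2149, and TKO d6 -cyt, where it gave 1556 and 2224, held 1119 and 1241. Twist1 gave 187 and 102 and Pdgfra 100.1 and 99.7 in TKO d6 -cyt, against 90.7 and 48.2 and 40.9 and 32.6 in WT d2 -cyt. In TKO d6 +cyt, where Col1a1 gave 186 and 161, Twist1 gave 139 and 101.0 and Pdgfra 126.0 and 116. 10 and 9 of the 10 markers exceeded 3 counts in TKO d6 -cyt and none was at 0. Neural crest markers, a further source of mesenchyme, summed to 2338 and 3430.1 in WT d6 -cyt, 2638 and 1822 in WT EpiLCs and 358 to 1304 elsewhere. In WT EpiLCs Foxd3 alone gave 2537 and 1729.9 of these sums, and in WT d6 -cyt Tfap2b gave 283 and 1566. The part of mesenchymal cells in the fibrillar collagen levels was not tested.

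**Figure D5:**
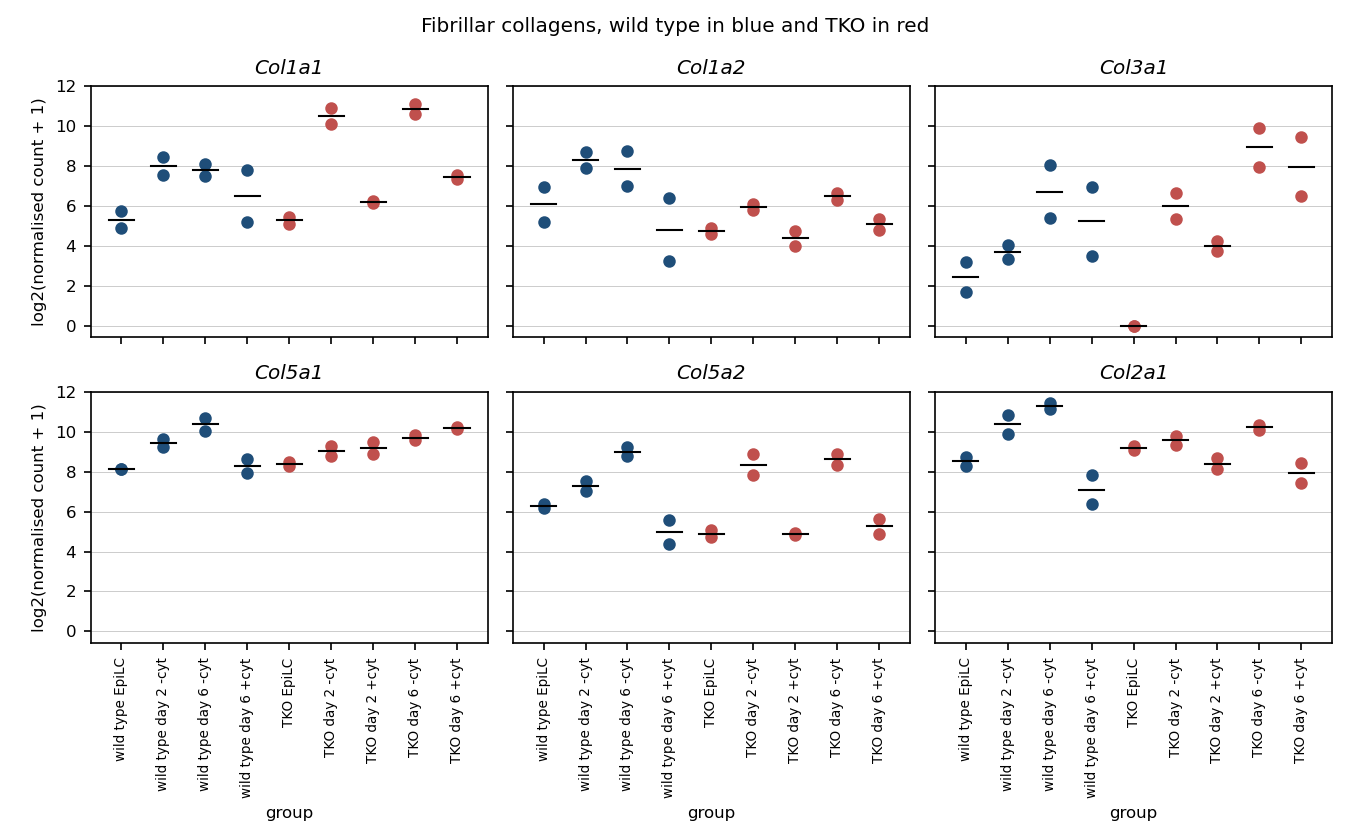
Levels of 6 fibrillar collagen genes in the 9 groups (WT blue, TKO red) as log2(normalised count + 1); points are libraries and bars are the mean of the 2 log2 values. Col1a1 is highest in the 4 TKO libraries without cytokines, Col1a2 is not, and Col2a1 is highest in WT d6 -cyt.

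Among the collagens that decorate fibrils or span the membrane, Col9a2 and Col13a1 separated TKO from WT aggregates without cytokines. Col9a2 (chromosome 4, 121039385 to 121055322, plus strand), a chain of the cartilage and vitreous type IX collagen, gave 64.3 and 67.3 normalised counts in WT EpiLCs, 44.8 and 62.2 in WT d2 -cyt, 139 and 27.8 in WT d6 -cyt, and 888 and 777 in WT d6 +cyt. TKO libraries gave 80.4 and 78.1 in EpiLCs, 742 and 358 in d2 -cyt, 552 and 573 in d2 +cyt, 1125 and 842 in d6 -cyt, and 1750.3 and 2107 in d6 +cyt. WT d6 +cyt and all TKO aggregates lay above every other library. TKO exceeded WT by 3.32 at d2 -cyt (adjusted p = 0.000137) and by 3.49 at d6 -cyt (adjusted p = 2.16e-05). Its partner chains were low, Col9a1 at or below 26.9 and Col9a3 between 26.4 and 128, and 8.08% of the exon bases of Col9a3 overlap Tcfl5 on the opposite strand.

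Col13a1 (chromosome 10, 61838236 to 61979108, minus strand), a transmembrane collagen of cell adhesion sites and the neuromuscular junction, gave 20.9 and 19.5 in WT EpiLCs, 4.87 and 3.88 in WT d2 -cyt, 3.63 and 0 in WT d6 -cyt, and 66.1 and 92.7 in WT d6 +cyt. TKO libraries gave 3.97 and 8.80 in EpiLCs, 46.7 and 18.02 in d2 -cyt, 17.0 and 14.9 in d2 +cyt, 206 and 119 in d6 -cyt, and 281 and 288 in d6 +cyt. The groups at d6 did not overlap between genotypes. TKO exceeded WT at d6 -cyt by 6.02 ± 0.66 (adjusted p = 2.5e-06), a size that rests on 8 and 0 raw counts in WT, and the rise from d2 to d6 +cyt in TKO was 4.15 ± 0.56 (adjusted p = 0.000615). Col23a1, another transmembrane collagen, was highest in WT d6 -cyt with 342 and 264 against 81.8 and 51.7 in TKO d6 -cyt (-2.16, adjusted p = 0.000315). The other 2 transmembrane members, Col17a1 of hemidesmosomes and Col25a1, did not exceed 82.7 and 86.1. Germ cell markers were high in WT d6 +cyt and in TKO aggregates, the groups in which Col9a2 was also high, and their part was not tested.

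Type VI collagens, which form beaded filaments close to the cell surface, were low throughout, with no gene above 139 normalised counts. Their sum over 6 genes was 82.4 ± 15.2 in WT EpiLCs, 91.7 ± 16.5 in WT d2 -cyt, 111 ± 103 in WT d6 -cyt and 121 ± 51.5 in WT d6 +cyt. In TKO it was 199.97 ± 51.1 in EpiLCs, 329 ± 19.0 in d2 -cyt, 137 ± 56.5 in d2 +cyt, 322 ± 53.3 in d6 -cyt and 204 ± 77.4 in d6 +cyt. TKO against WT, 1 of the 6 was higher in EpiLCs, 4 at d2 -cyt, 3 at d6 -cyt and 2 at d6 +cyt, against 7.57%, 18%, 28.5% and 11.3% of all genes, and none was lower in those tests. The 1 in EpiLCs was Col6a2, with 95.2 and 44.0 against 6.43 and 14.5 (2.63, adjusted p = 0.0168), a call lost without WT EpiLC replicate 1 (2.27, adjusted p = 0.132) or replicate 2 (3.46, adjusted p = 0.0716), or TKO EpiLC replicate 1 (1.97, adjusted p = 0.106).

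The remaining collagens were low to intermediate. Col22a1, a collagen of tissue junctions, gave 398 and 256 in WT d6 -cyt against 87.2 and 74.5 in TKO d6 -cyt (-1.996, adjusted p = 0.000356). Col26a1 gave 335 and 556 in WT d6 -cyt, and rose there by 3.62 from d2 (adjusted p = 0.000275). Col7a1, the anchoring fibril collagen of skin, gave 344 and 338 in WT d2 -cyt and fell to 81.1 and 17.4 in WT d6 -cyt (-2.76, adjusted p = 0.000435). Col20a1 gave 0 and 1.67 in WT EpiLCs and 66.1 and 91.4 in WT d6 +cyt, at least 24.3-fold higher against a floor of 3 counts per library. Col8a2 reached 184, Col27a1 214, Col11a2 177, Col24a1 132, Col16a1 109 and Col6a1 106 in their highest library. Col5a3, Col12a1, Col6a3, Col6a4, Col6a5, Col6a6, Col14a1, Col8a1, Col10a1 and Col28a1 did not exceed 95.7 in any library.

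The enzymes and partners of these chains were read from 4 further lists. Of 31 tested genes of collagen synthesis and processing, 7 were higher and 3 lower in WT d2 -cyt than in EpiLCs, 5 and 5 in WT d6 -cyt than in d2 -cyt, and 9 and 11 in WT d6 +cyt than in d6 -cyt, where all genes gave 18.6% and 15.7%, 20.5% and 19%, and 29.6% and 28.6%. TKO against WT the counts were 4 and 0 in EpiLCs, 8 and 3 at d2 -cyt, 9 and 5 at d6 -cyt and 9 and 1 at d6 +cyt, against 7.57% and 3.18%, 18% and 14.8%, 28.5% and 26.9%, and 11.3% and 7.53% of all genes. Serpinh1, the collagen chaperone Hsp47, gave 403 and 524 normalised counts in WT EpiLCs and 4797 and 3232 in WT d2 -cyt (3.15 ± 0.35, adjusted p = 1.2e-05). Bmp1, the proteinase that removes the C-propeptide of fibrillar collagens, was higher in TKO than in WT at d6 +cyt, with 672 and 435 against 29.2 and 56.6 (3.67 ± 0.39, adjusted p = 2.47e-05). At d6 -cyt Bmp1 lay the other way, with 369 and 211 in TKO against 1026 and 682 in WT. Adamts14, a procollagen N-proteinase, was higher in TKO at d2 -cyt (4.38, adjusted p = 7.36e-06) and d6 -cyt (5.47, adjusted p = 4.56e-07). At d6 +cyt TKO gave 376 and 374 of Adamts14, below the 718 and 600 of WT. By the edgeR interaction test, the change with cytokines at d6 was more positive in TKO for Bmp1 (5.21, adjusted p = 1.84e-06). For Adamts14 it was more negative in TKO (-6.29, adjusted p = 1.99e-06).

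Of 17 tested basement membrane genes other than the members, 10 were higher and 2 lower in WT d2 -cyt than in EpiLCs, and 3 and 8 in WT d6 -cyt than in d2 -cyt, with the same 18.6% and 15.7%, and 20.5% and 19%, over all genes. TKO against WT, 3 and 1 differed in EpiLCs, 5 and 6 at d2 -cyt, 8 and 7 at d6 -cyt and 3 and 2 at d6 +cyt, beside all-gene shares of 7.57% and 3.18%, 18% and 14.8%, 28.5% and 26.9%, and 11.3% and 7.53%. Nid2, a nidogen that bridges laminin to type IV collagen, fell in WT between d2 and d6 -cyt (-2.68, adjusted p = 1.76e-06), giving 4434 and 3714 in EpiLCs, 1372 and 1062 in d2 -cyt, 177 and 218 in d6 -cyt and 11281 and 10725 in d6 +cyt. Its level in the TKO libraries was 3766 to 7311 and all of them lay above both WT d6 -cyt libraries (4.84 ± 0.28 at d6 -cyt, adjusted p = 4.67e-09). Nid1 was higher in TKO at d6 -cyt, with 1841 and 1593 against 106 and 192 (3.58, adjusted p = 1.85e-06).

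Of 13 tested collagen and laminin receptors, 9 were higher and 2 lower in TKO than in WT at d6 -cyt (28.5% and 26.9% of all genes), 4 and 2 at d2 -cyt (18% and 14.8%), 2 and 2 at d6 +cyt (11.3% and 7.53%) and 1 and 0 in EpiLCs (7.57% and 3.18%). In aggregates without cytokines the collagen receptor kinases differed between genotypes in opposite directions. Ddr2, which binds fibrillar collagens, gave 0.975 to 15.1 normalised counts in WT without cytokines and in EpiLCs of both genotypes, 117 and 120.3 in WT d6 +cyt, 85.3 to 331 in TKO d2 and d6 -cyt and d2 +cyt, and 1085 and 1717 in TKO d6 +cyt. TKO exceeded WT by 6.09 at d2 -cyt (adjusted p = 2.68e-07), 4.55 at d6 -cyt (adjusted p = 1.78e-08) and 3.56 at d6 +cyt (adjusted p = 9.61e-07). Ddr1, which also binds type IV collagen, was lower in TKO at d2 -cyt (-2.14, adjusted p = 2.9e-06) and d6 -cyt (-3.31, adjusted p = 1.43e-08). Its change with cytokines at d6 was more positive in TKO by the interaction test (3.26, adjusted p = 6.86e-07), so the opposite directions are given for -cyt only. Itga3, an alpha integrin subunit for laminin-511 and laminin-332, fell in WT from 1479 and 1239.9 in d2 -cyt to 219 and 191 in d6 -cyt (-2.77, adjusted p = 5.11e-07), and TKO held 1007 and 973 at d6 -cyt. Of 15 tested interstitial matrix genes, 6 were higher and 3 lower in TKO than in WT at d6 -cyt and 6 and 0 at d6 +cyt, against 28.5% and 26.9%, and 11.3% and 7.53%, of all genes.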

How the data were processed

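The authors depleted total RNA of ribosomal RNA, prepared directional NEBNext Ultra II libraries and sequenced them on an Illumina NextSeq instrument. They trimmed reads with Trim Galore 0.5.0 and cutadapt 1.16, aligned them to mm10 with STAR 2.7.1a and counted fragments over refGene exons with featureCounts of Subread 1.5.2. The stated command has no strand option, so reads of overlapping genes on opposite strands cannot be told apart. The deposited values are raw counts per gene for 18 libraries. Of 25272 rows, 33 held command lines and no gene and were left out.

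Counts were filtered with filterByExpr, scaled with TMM factors and fitted with edgeR 4.0.16 (quasi-likelihood test, R 4.3.3) as 1 model of 9 group means with 9 residual degrees of freedom. The 14 comparisons of groups and 2 interactions were adjusted by Benjamini-Hochberg over 16582 genes, and called below 0.05. Standard errors were approximated as log2 fold change over the square root of F. Levels are counts divided by DESeq2 1.42.0 size factors. Gene models were taken from GENCODE vM21, which matched 55 of 55 genes. The genes and lists were chosen with earlier results of these data known. Values in every library were given for Col4a1, Col4a2, Lama1, Lamb1, Lamc1, Lama5, Col18a1, Col1a1, Col1a2 and Col3a1. Per comparison, at most 5 called genes of highest and 5 of lowest log2 fold change with a mean of at least 50 normalised counts were named, with at most 4 called genes per further list. Other genes named were picked after their values were seen. The values of 1 member are not reported here. Alternatives were RLE factors, library size alone, no filter, a replicate block, the compared libraries alone, DESeq2 and leaving out each library.

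Equal replicate numbers did not mark a pairing. Over 36 pairs of groups, deviations of equally numbered libraries correlated from -0.22 to 0.269 (median 0.007).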

Additional observations from a re-analysis of the deposited data

Results flagged for a closer look

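The change from EpiLCs to d6 -cyt differed between genotypes by the interaction test (edgeR, TKO change minus WT change on the log2 scale) for 13 named genes. It was more positive in TKO for Col13a1 (7.64, adjusted p = 1.52e-05), Lamb1 (3.96, adjusted p = 4.53e-06), Lama3 (3.63, adjusted p = 9.66e-05), Col9a2 (3.21, adjusted p = 0.00178), Col1a1 (3.05, adjusted p = 0.0134), Lama5 (2.99, adjusted p = 1.47e-05), Col18a1 (1.88, adjusted p = 0.00349) and Lamc1 (1.04, adjusted p = 0.0138). It was more negative in TKO for Col4a6 (-4.17, adjusted p = 0.0193), Col4a5 (-3.42, adjusted p = 0.00032), Lama1 (-2.55, adjusted p = 0.00351), Col23a1 (-2.40, adjusted p = 0.0113) and Col4a2 (-1.82, adjusted p = 0.0389). Without WT d6 -cyt replicate 2 the value of Col4a2 was -0.88 (adjusted p = 0.203) and that of Col4a6 -2.69 (adjusted p = 0.0609). Without TKO EpiLC replicate 1 they were -1.18 (adjusted p = 0.217) and -2.38 (adjusted p = 0.337), and Lama1 was -1.66 (adjusted p = 0.0606). On the compared libraries alone the adjusted p was 0.0889 for Col4a2, 0.0625 for Col4a6 and 0.0552 for Lamc1. Without WT EpiLC replicate 1 it was 0.12 for Col4a2, 0.0591 for Col4a6, 0.0549 for Lamc1 and 0.0558 for Col1a1, and without TKO EpiLC replicate 1 it was 0.0505 for Lamc1 and 0.0518 for Col1a1. Without WT EpiLC replicate 2 it was 0.0649 for Col4a2 and 0.0667 for Col23a1, without TKO EpiLC replicate 2 it was 0.0528 for Col23a1, and without TKO d6 -cyt replicate 2 it was 0.129 for Col4a2 and 0.0519 for Col4a6.

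The change with cytokines at d6 also differed between genotypes for 13 named genes, of which 10 are among those above, with the opposite sign. Both tests contain the difference between genotypes at d6 -cyt, with opposite signs, and are not independent. It was more positive in TKO for Col4a2 (3.69, adjusted p = 0.000289), Col4a5 (3.16, adjusted p = 0.000155), Col4a1 (2.57, adjusted p = 0.00119) and Lama1 (2.01, adjusted p = 0.00769), and for Col22a1 (2.97, adjusted p = 0.000382) and Col5a1 (2.54, adjusted p = 9.56e-05). It was more negative in TKO for Col13a1 (-4.19, adjusted p = 0.000732), Lama3 (-3.91, adjusted p = 4.1e-05), Col18a1 (-2.74, adjusted p = 0.000166), Col1a1 (-2.68, adjusted p = 0.0126), Lamb1 (-2.45, adjusted p = 0.000224), Lama5 (-1.83, adjusted p = 0.000717) and Lamc1 (-1.42, adjusted p = 0.0016). The value of Col1a1 was -0.81 without WT d6 +cyt replicate 2 (adjusted p = 0.308), and on the compared libraries alone its adjusted p was 0.0522. WT d6 +cyt is the group that the study describes as sorted, and sorting and cytokines cannot be told apart in the WT part of this test.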

How the results depend on the processing

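Of 141 log2 fold changes of named genes, the call was lost in 1 with RLE factors, 8 with library size alone, 14 on the compared libraries alone, 2 with the replicate block and 0 without the filter or by DESeq2, and in 53 without some library. Only Col1a1 in WT d6 +cyt against EpiLCs changed sign (1.81, and between -0.0588 without WT d6 +cyt replicate 2 and 2.5894 without replicate 1). A library left alone in its group is assumed to vary like the other groups. For genes of the further lists, 28 of 82 were lost in some setting and 0 changed sign. Genes near 3 counts carry little information.

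The replicate block (pairing by number) gave 29, 26, 22, 35, 9, 22, 28, 17, 11, 7, 0, 10, 2, 6, 21 and 28 called members in the 16 comparisons, in the order WT d2 -cyt against EpiLC, WT d6 against d2 -cyt, WT d6 +cyt against EpiLC, WT d6 +cyt against -cyt, TKO against WT in EpiLC, d2 -cyt, d6 -cyt and d6 +cyt, TKO d2 -cyt against EpiLC, d2 +cyt against EpiLC, d6 against d2 -cyt, d6 against d2 +cyt, +cyt against -cyt at d2 and d6, and the interactions with time and with cytokines. Besides Col4a6 (TKO against WT at d6 -cyt), it lost the rise of Col3a1 from d2 to d6 +cyt in TKO (4.42, adjusted p = 0.0596) and, among the further lists, Nid2 in TKO against WT at d6 +cyt (adjusted p = 0.0523), and changed no other call of a named gene, while members not named moved the counts by at most 1.5 times. Without 1 library, the counts in the same order were 18 to 33, 15 to 28, 11 to 28, 29 to 36, 2 to 14, 13 to 27, 22 to 35, 4 to 24, 7 to 19, 3 to 14, 0 to 3, 3 to 17, 2 to 7, 1 to 14, 14 to 23 and 22 to 29.

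With a log2 fold change beyond 2 also required, fewer could pass, and the counts were 19 (WT d2 -cyt against EpiLC), 14 (WT d6 +cyt against EpiLC), 1 (TKO against WT EpiLC), 19 (d6 -cyt), 8 (d6 +cyt), 5 (TKO d2 +cyt against EpiLC), 6 (TKO d6 against d2 +cyt) and 3 (TKO +cyt against -cyt at d6). On the compared libraries alone they were 13 (WT d6 against d2 -cyt), 12 (TKO d6 against d2 -cyt) and 12 and 14 (TKO +cyt against -cyt at d2 and d6). With library size alone they were 13 (TKO against WT EpiLC), 23 (TKO d2 -cyt against EpiLC) and 8 (TKO +cyt against -cyt at d2). Without the filter they were 12, 5 and 6, and by DESeq2 14, 4 and 6, for TKO against WT EpiLC, TKO d6 against d2 -cyt and TKO +cyt against -cyt at d2. The cause was not tested for these shifts of settings other than the stricter limit.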
